A study of Mus musculus with 15 samples.

Results

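Integrin subunits of hematopoietic stem cell (HSC) adhesion were described here as 10 genes chosen by name: the alpha subunits Itga4, Itga5, Itga6, Itga9, Itgal, Itgam and Itgav, and the beta subunits Itgb1, Itgb2 and Itgb7. All 10 were found among the 20696 genes of the table, 7 alpha and 3 beta. RNA was sequenced from HSCs that had been sorted from mouse bone marrow, in 15 libraries of 3 groups of 5. The groups were libraries labelled aged Thbs1 knockout, from mice of 18 months, aged controls of 18 months that carried no named allele, and young controls of 3 months. Thbs1 encodes thrombospondin 1, a secreted matrix glycoprotein that binds integrins among other receptors. The labels give no strain, no sorting gate and no statement that the 5 libraries of a group came from separate mice, so the p-values measure the spread between libraries, part of which may be technical.

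An integrin is a pair of one alpha and one beta subunit that spans the plasma membrane, binds matrix or a cell-surface ligand outside and connects to talin, kindlin and the actin skeleton inside. The beta subunit sets which alpha partners are possible: beta 1 pairs with alpha 4, alpha 5, alpha 6, alpha 9 and alpha V, beta 2 with the leukocyte subunits alpha L and alpha M, and beta 7 with alpha 4 and alpha E. In bone marrow, alpha 4 integrins bind VCAM-1 and fibronectin and are known for holding stem and progenitor cells in the marrow and for their homing after transplantation.

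Values are FPKM, fragments scaled to gene length and library size. Levels set side by side between genes therefore depend on the length used. All annotated exons together came to 13978 bases for Itga4 and 2770 bases for Itgb7. Each column was assigned to its group by its sample title. The table's library names pair with titles in another way in the sample descriptions, and the 2 routes give the same sample for 5 columns and different samples for 10. The results that follow hold for the titles. Thbs1 went against the label: its level was not reduced where knockout is named, and it lay between 1.69 and 17.89 FPKM there, against 0.01 to 8.75 FPKM in aged controls and 0.70 to 13.38 FPKM in young controls. Reads in genes, recovered from the rounding of the values, came to 16650000 to 28620000 per library. In the labelled knockout group, rRNA-like genes took 2.352% of reads in replicate 2 and 0.808% in replicate 5, against at most 0.477% in the other libraries. The sorted cells carried the HSC list: 14 of its 14 markers had a mean of at least 1 FPKM, and their summed level was 844 to 1054 FPKM in the labelled knockout libraries, 1190 to 1276 FPKM in aged controls and 987 to 1036 FPKM in young controls. Macrophage, mast cell and basophil, and endothelial and stromal markers summed to at most 15.2, 8.50 and 17.0 FPKM in any library, and erythroid markers to between 42.3 and 368 FPKM.

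The level of beta 7 stood apart in the aged controls. Itgb7 rose with age and was lower in the libraries labelled aged Thbs1 knockout than in aged controls. It encodes integrin beta 7, which with alpha 4 forms the receptor for MAdCAM-1, VCAM-1 and fibronectin and with alpha E binds E-cadherin. Itgb7 (ENSMUSG00000001281, GRCm38 chr15:102215995-102231944, minus strand) had 11.51, 11, 7.44, 7.58 and 10.50 FPKM in the labelled knockout libraries. It had 19.41, 20.53, 24.45, 14.91 and 19.67 FPKM in aged controls. It had 11.99, 13.59, 9.03, 10.75 and 14.29 FPKM in young controls. Every aged control lay above every library of both other groups, while the labelled knockout and young control ranges overlapped.

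**Figure D1:**
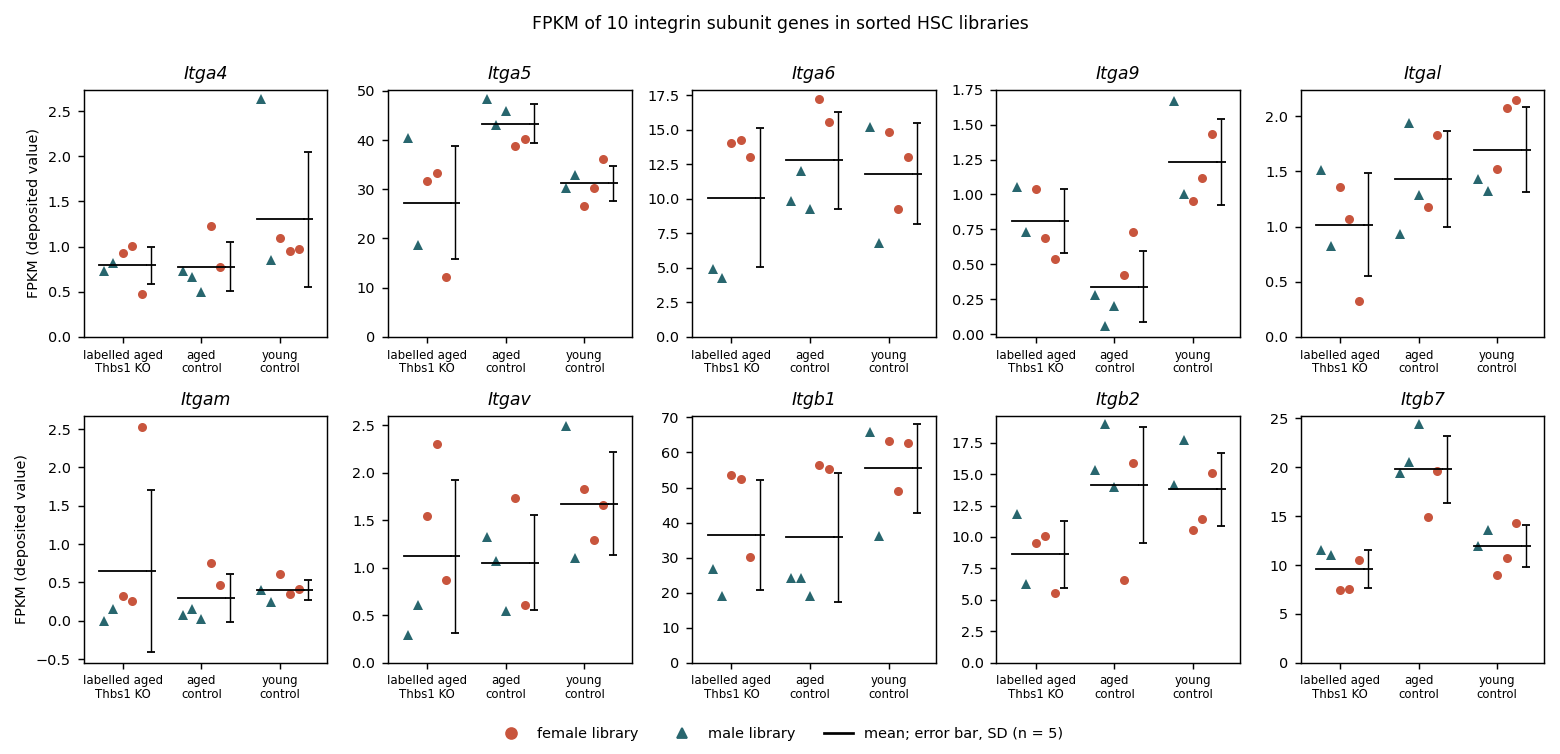
FPKM (y axis, linear, one scale per gene) of the 10 integrin subunit genes in 15 libraries, with the labelled aged Thbs1 knockout group at the left, aged controls in the middle and young controls at the right. Circles are female and triangles male libraries, horizontal lines are means and bars are SD (n = 5 libraries); the 5 aged controls of Itgb7 lie between 14.91 and 24.45 FPKM, above all libraries of both other groups.

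Means were 9.61 ± 1.95 FPKM in the labelled knockout libraries, 19.8 ± 3.40 FPKM in aged controls and 11.9 ± 2.13 FPKM in young controls (SD, n = 5 each). On the log2(FPKM + 1) scale, which understates the change of low genes, the aged control minus young control difference was 0.69 ± 0.16 (SE; adjusted p = 0.019, limma with Benjamini-Hochberg adjustment over 11345 genes). The labelled knockout minus aged control difference was -0.98 ± 0.16 (adjusted p = 0.0029, limma), and the labelled knockout minus young control difference was -0.29 ± 0.16 (adjusted p = 0.300, limma; 95% interval -0.63 to 0.05). These comparisons share libraries: the aged controls enter the first and the second. In a bulk sample, fewer cells that express a gene and less RNA of it per cell cannot be told apart. The call with age rested on single libraries: it was lost without young control replicate 3 (0.60, adjusted p = 0.072, limma), young control replicate 4 (0.66, adjusted p = 0.057), aged control replicate 2 (0.67, adjusted p = 0.057) or aged control replicate 3 (0.61, adjusted p = 0.069). The call against the label held without any one library, with adjusted p between 0.0018 and 0.012 (limma), and without labelled knockout replicates 2 and 5 together (-1.09, adjusted p = 0.0039).

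Within each sex Itgb7 kept its order between the aged controls and the others. Among female libraries it averaged 8.51 FPKM in 3 labelled knockout libraries, 17.3 FPKM in 2 aged controls and 11.4 FPKM in 3 young controls. Among male libraries it averaged 11.3 FPKM in 2 labelled knockout libraries, 21.5 FPKM in 3 aged controls and 12.8 FPKM in 2 young controls. With females alone, a split chosen after seeing the data, the aged control minus young control difference was 0.58 (adjusted p = 0.75, limma) and the labelled knockout minus aged control difference was -0.95 (adjusted p = 0.399). With males alone the differences were 0.70 (adjusted p = 0.028, limma) and -0.87 (adjusted p = 0.019). Over all 11345 genes, these comparisons called 1093 and 241 in males alone, against 27 and 10 in females alone.

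Markers of lymphoid cells, which carry beta 7 integrins, were read beside Itgb7. Of 9 T and NK cell markers 6 were in the table and 2 reached a mean of 1 FPKM. Their summed level was 29.3 to 61.7 FPKM in the labelled knockout libraries, 67.2 to 134.6 FPKM in aged controls and 53.8 to 104.8 FPKM in young controls. These sums were carried by Nkg7, a granule membrane protein gene, and Klrb1c, which encodes the NK1.1 receptor. Klrb1c moved with Itgb7 in the comparisons that hold the aged controls. It differed by 2.34 between aged and young controls (adjusted p = 8.7e-05, limma) and by -1.38 between labelled knockout libraries and aged controls (adjusted p = 0.021). Between labelled knockout libraries and young controls it went the other way, at 0.95 (adjusted p = 0.107, limma), against -0.29 for Itgb7. In labelled knockout replicate 5 Klrb1c was at 15.07 FPKM, inside the aged control range of 9.71 to 22.64 FPKM. Nkg7, the larger part of the sums, was called in none of these comparisons. It differed by 0.25 between aged and young controls (adjusted p = 0.603, limma). Between labelled knockout libraries and aged controls it differed by -0.96. Mean Cd4 was highest in young controls, at 0.76 FPKM, against 0.13 FPKM in aged controls and 0.2 FPKM in the labelled knockout libraries. The T cell receptor chains Cd3d and Cd3g stayed at or under 0.36 FPKM in all 15 libraries, and the NK receptor Ncr1 was at 1.20 FPKM in 1 labelled knockout library and at or under 0.07 FPKM in every control. Of 8 B cell markers 7 were in the table, and their summed level was 30.7 to 57.2 FPKM in the labelled knockout libraries, 37.8 to 65.2 FPKM in aged controls and 35.6 to 47.2 FPKM in young controls. Almost all of that was Cd79b, a B cell receptor chain gene, while the B cell factor Ebf1 stayed at or under 0.11 FPKM. The summed HSC markers given above had the same order as Itgb7, with no overlap between aged controls and the other groups. Of the 14 markers, 3 were called higher and none lower with age (limma), where 3.18% and 1.23% of all genes tested were. In labelled knockout libraries against aged controls, 1 was called lower, where 1.19% of all genes tested were. Ly6a, which encodes the surface marker Sca-1, averaged 137 FPKM in the labelled knockout libraries, 284 FPKM in aged controls and 155 FPKM in young controls. It differed by 0.88 between aged and young controls (adjusted p = 0.013, limma) and by -1.12 between labelled knockout libraries and aged controls (adjusted p = 0.0043). Kit and Hlf had lower means with age: 109 and 28.8 FPKM in aged controls, against 142 and 38.2 FPKM in young controls. The part of these markers in the Itgb7 result was not tested.

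Across all 15 libraries, the tested genes whose log2(FPKM + 1) followed Itgb7 most closely were Tmem106a (Pearson r = 0.903, Spearman rho = 0.825), Prom2, a prominin family gene (r = 0.897, rho = 0.876), and Krt8, a keratin gene (r = 0.889, rho = 0.889). These are descriptions over 15 libraries that share their groups, without a test. Mean Krt8 was 1.09 FPKM in the labelled knockout libraries, 3.26 FPKM in aged controls and 1.95 FPKM in young controls. Mean Prom2 was 0.188, 3.41 and 1.15 FPKM in the same groups.

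The upstream sequences of Itgb7, Itga5 and Itgb1 are shown: Itgb7 was called in both comparisons that hold the aged controls, Itga5 was an abundant alpha subunit whose aged and young controls did not overlap, and Itgb1 had the highest mean of the beta subunits. RefSeq start entries on GRCm38.p6 were found for 7 of the 10 members, and each sequence is the 250 bases before the start, 5′ to 3′ on the gene's strand. Itgb7 lies at chr15:102231936-102232185 (minus strand), Itga5 at chr15:103366792-103367041 (minus strand) and Itgb1 at chr8:128685404-128685653 (plus strand). Capitals mark matches on either strand to GGAA, the core of ETS factor sites such as PU.1 (TTCC on the other strand), and to GGGCGG, the GC box (CCGCCC on the other strand).
Itgb7: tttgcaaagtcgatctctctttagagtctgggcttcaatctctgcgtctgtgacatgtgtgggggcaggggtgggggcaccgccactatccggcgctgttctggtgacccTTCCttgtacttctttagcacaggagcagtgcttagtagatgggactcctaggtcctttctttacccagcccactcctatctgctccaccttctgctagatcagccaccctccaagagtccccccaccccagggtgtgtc
Itga5: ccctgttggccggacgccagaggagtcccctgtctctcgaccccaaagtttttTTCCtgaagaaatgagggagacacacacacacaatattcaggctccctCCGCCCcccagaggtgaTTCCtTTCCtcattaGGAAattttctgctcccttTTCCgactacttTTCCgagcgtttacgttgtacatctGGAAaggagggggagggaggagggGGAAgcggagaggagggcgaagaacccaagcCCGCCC
Itgb1: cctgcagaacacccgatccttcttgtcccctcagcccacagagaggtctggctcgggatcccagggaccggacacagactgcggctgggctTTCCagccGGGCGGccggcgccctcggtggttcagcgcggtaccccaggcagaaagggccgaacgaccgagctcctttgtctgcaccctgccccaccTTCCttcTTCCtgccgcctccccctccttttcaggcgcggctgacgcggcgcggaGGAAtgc
The Itgb7 sequence held 1 GGAA match and no GC box. The Itga5 sequence held 8 GGAA matches and 2 GC boxes, and the Itgb1 sequence held 4 and 1. None of the 3 held TGTGGT, the core of RUNX factor sites, on either strand. Of 32851 RefSeq promoter entries, 93.4% held GGAA, 32.7% held GGGCGG and 14.0% held TGTGGT in the same window, so the matches are descriptions of these letters only.

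Itga5 encodes alpha 5, which pairs with beta 1 as the main fibronectin receptor. Itga5 (ENSMUSG00000000555, chr15:103344286-103366763, minus strand) had 40.39, 18.63, 31.67, 33.34 and 12.23 FPKM in the labelled knockout libraries. It had 48.43, 43.02, 45.86, 38.72 and 40.29 FPKM in aged controls. It had 30.32, 32.93, 26.57, 30.24 and 36.11 FPKM in young controls. The 5 aged controls lay above the 5 young controls, and the labelled knockout libraries ranged below and into both groups. Means were 27.3 ± 11.5 FPKM in the labelled knockout libraries, 43.3 ± 3.97 FPKM in aged controls and 31.2 ± 3.54 FPKM in young controls (SD, n = 5 each).

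The aged control minus young control difference of Itga5 was 0.46 ± 0.23 (SE) and did not pass the test (adjusted p = 0.267, limma). The labelled knockout libraries are part of the estimate of spread in that fit. With only the compared groups fitted the adjusted p was 0.0147, and without labelled knockout replicates 2 and 5, where Itga5 was lowest and rRNA-like reads were highest, it was 0.0123 (limma). The labelled knockout minus aged control difference was -0.76 ± 0.23 (adjusted p = 0.118, limma). Without replicates 2 and 5 it was -0.30 (adjusted p = 0.328), and without labelled knockout replicate 1 it was -0.93 (adjusted p = 0.042). The labelled knockout minus young control difference was -0.30 (adjusted p = 0.430), and it was 0.16 (adjusted p = 0.700) without those libraries.

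Itga9 encodes alpha 9, which pairs with beta 1 and binds tenascin C, osteopontin and VCAM-1. Its mean over all libraries was under 1 FPKM, so it was read from a fit on all 20696 genes. Itga9 (ENSMUSG00000039115, chr9:118606690-118901003, plus strand) had 1.05, 0.73, 1.04, 0.69 and 0.54 FPKM in the labelled knockout libraries. It had 0.28, 0.06, 0.20, 0.42 and 0.73 FPKM in aged controls. It had 1.67, 1.0, 0.95, 1.12 and 1.43 FPKM in young controls. All 5 aged controls lay below all 5 young controls, and the labelled knockout libraries overlapped both.

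Means of Itga9 were 0.81 ± 0.23 FPKM in the labelled knockout libraries, 0.34 ± 0.25 FPKM in aged controls and 1.23 ± 0.31 FPKM in young controls (SD, n = 5 each). The aged control minus young control difference was -0.75 ± 0.14 (SE; adjusted p = 0.0089, limma over 20696 genes), in a comparison that called 2.23% of those genes. The labelled knockout minus aged control difference was 0.45 ± 0.14 (adjusted p = 0.220), and the labelled knockout minus young control difference was -0.30 ± 0.14 (adjusted p = 0.325). The change with age held without any one library, with adjusted p between 0.0026 and 0.034, but not in females alone (-0.46, adjusted p = 0.665) or males alone (-0.97, adjusted p = 0.080). Between 12 and 306 reads per library lay behind these values. The gene overlaps Gm2415 and Gm10157 on the other strand, which averaged 0.246 and 1.25 FPKM, and the strand setting of the authors' counting is not given in the sources used here.

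**Figure D2:**
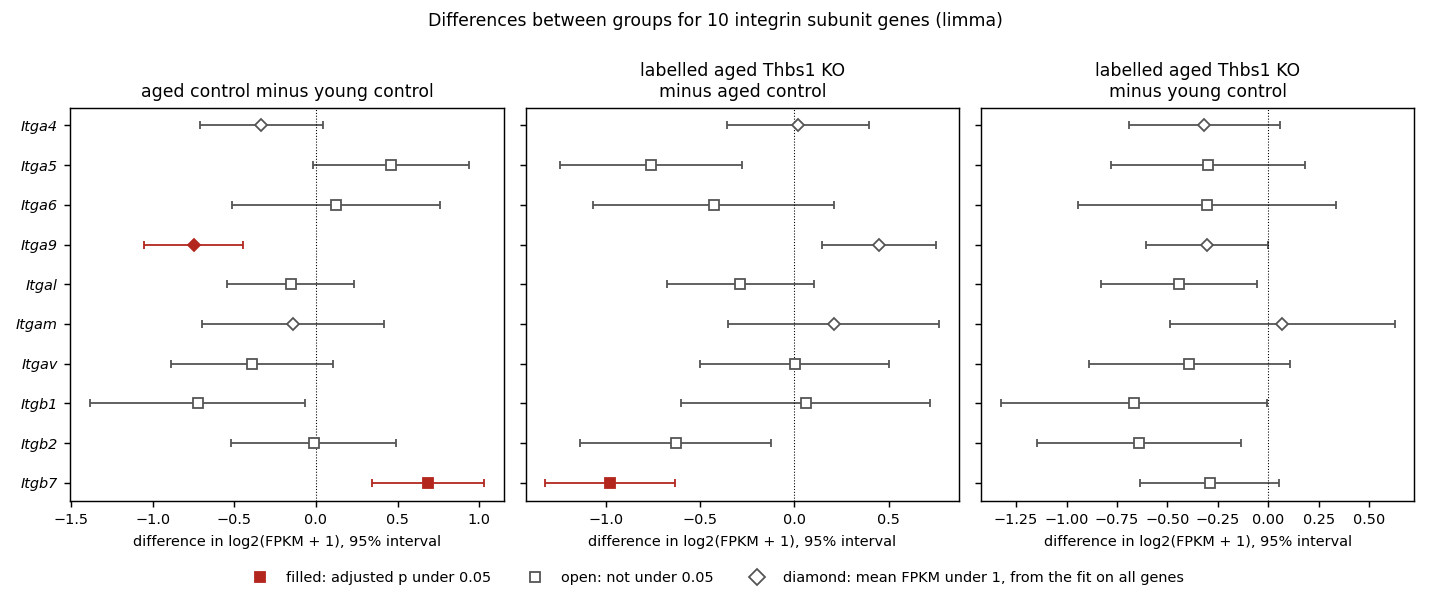
Differences in log2(FPKM + 1) for the 10 genes in the 3 comparisons of groups, each with its 95% interval from limma; filled symbols have an adjusted p under 0.05, and diamonds are the 3 genes with a mean under 1 FPKM, read from the fit on all genes. Itgb7 is filled in the aged control minus young control panel (0.69) and in the labelled knockout minus aged control panel (-0.98), Itga9 in the first alone (-0.75).

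Of the 7 members with a mean of at least 1 FPKM, 1 was called higher and none lower in aged controls than in young controls, in a comparison that called 4.42% of 11345 genes, with 3.18% higher and 1.23% lower. Groups did not overlap for 2 of the 7 (Itgb7 and Itga5), against 7.16% of all genes tested. In labelled knockout libraries against aged controls 1 was called lower, where 1.55% of genes were called and 1.19% were lower, and 1 did not overlap, against 2.34%. In labelled knockout libraries against young controls no member was called by limma, where 1.63% of genes were called, 1.01% higher and 0.617% lower, and 3 had an unadjusted p under 0.05. Voom on the recovered reads called none either. In that comparison all 7 overlapped, where 4.5% of genes did not. The median difference of the 7 was -0.01, -0.43 and -0.39 in these comparisons, against -0.02, -0.03 and -0.06 over all genes tested. With 7 genes a share of calls is a coarse figure, and these counts describe the genes named and no more. For unadjusted p-values under 0.05 in the comparisons of groups, no count over all genes is given. Such counts, here and below, therefore have no background beside them.

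Itgb1 and the laminin-binding Itga6 had the largest standard errors of the 7 tested members on the log2(FPKM + 1) scale. Itgb1 encodes beta 1, the partner of 5 of the alpha subunits here. Itgb1 (ENSMUSG00000025809, chr8:128685654-128733200, plus strand) had 26.82, 19.13, 53.49, 52.37 and 30.15 FPKM in the labelled knockout libraries. It had 24.27, 24.27, 19.01, 56.40 and 55.41 FPKM in aged controls. It had 65.95, 36.24, 63.19, 49.06 and 62.74 FPKM in young controls. Inside the aged controls the values fell into a low set of replicates 1 to 3 and a high set of replicates 4 and 5, and the group ranges overlapped.

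Itga6 encodes alpha 6, known as CD49f, which pairs with beta 1 or beta 4 as a laminin receptor and marks human HSCs. Itga6 (ENSMUSG00000027111, chr2:71745616-71858416, plus strand) had 4.90, 4.26, 14.05, 14.23 and 13.00 FPKM in the labelled knockout libraries. It had 9.87, 12.04, 9.26, 17.25 and 15.56 FPKM in aged controls. It had 15.16, 6.83, 14.84, 9.23 and 13.01 FPKM in young controls. The lowest 2 labelled knockout libraries were replicates 1 and 2, and the lowest 3 aged controls were replicates 1 to 3.

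In both aged groups the low libraries of Itgb1 and Itga6 included every male library. By the library names, the labelled knockout group held 3 female and 2 male libraries, the aged controls 2 and 3, and the young controls 3 and 2, and in each group the males carry the lower replicate numbers. A batch that followed those numbers therefore cannot be told apart from sex. Over all groups Itgb1 had a lowest value of 30.15, a median of 54.5 and a highest value of 63.19 FPKM in 8 female libraries, against 19.01, 24.27 and 65.95 FPKM in 7 male libraries. Itga6 had 9.23, 14.1 and 17.25 FPKM in female libraries, against 4.26, 9.26 and 15.16 FPKM in male libraries.

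With group as a covariate, the female minus male difference was 0.82 ± 0.18 for Itgb1 (SE; adjusted p = 0.013, limma) and 0.75 ± 0.18 for Itga6 (adjusted p = 0.018), so 2 of the 7 tested members were higher in female libraries. The comparison called 12.9% of all genes tested, with 9.67% higher and 3.27% lower. The call of Itga6 was lost without labelled knockout replicate 2 (0.64, adjusted p = 0.056). With the replicate number as a block neither was called (1.46, adjusted p = 0.599 for Itgb1, and 1.08, adjusted p = 0.616 for Itga6, limma), and 1 gene of 11345 was. Only replicate number 3 holds both sexes, so that fit rests on 3 libraries. Other measures moved with sex too. The share of rRNA-like reads had a median of 0.266% in female libraries, against 0.403% in male libraries, and mitochondrial reads had a median of 0.363%, against 0.557%. Thbs1 lay between 2.42 and 17.89 FPKM in female libraries, against 0.01 to 2.53 FPKM in male libraries. The part of these in the difference was not tested.

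**Figure D3:**
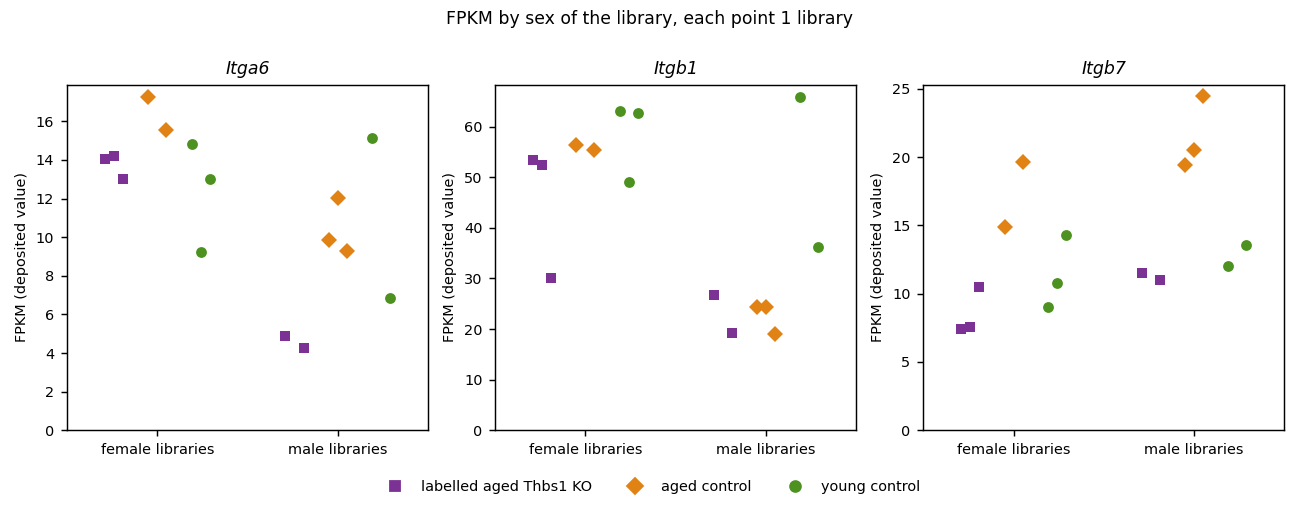
FPKM (y axis, from 0) of Itga6, Itgb1 and Itgb7 in female libraries at the left and male libraries at the right of each panel, each point 1 library; squares are labelled aged Thbs1 knockout, diamonds aged control and circles young control. In aged controls Itgb1 is at 55.41 and 56.40 FPKM in females, against 19.01 to 24.27 FPKM in males, while Itgb7 in aged controls lies above both other groups within each sex.

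Itgb1 was also read by sex within each group. Female libraries averaged 45.3 FPKM, against 23.0 FPKM in males, in the labelled knockout group, 55.9 FPKM against 22.5 FPKM in aged controls, and 58.3 FPKM against 51.1 FPKM in young controls. In males alone the aged control minus young control difference of Itgb1 was -1.09 (adjusted p = 0.015, limma) and the labelled knockout minus young control difference was -1.08 (adjusted p = 0.032), while in females alone they were -0.05 and -0.39 (adjusted p = 1.0 and 0.621). The difference between the sexes in the change with age was itself tested: it was 1.04 ± 0.39 for Itgb1 (female minus male; SE; adjusted p = 0.518, limma). For Itga6 the change between labelled knockout and young control differed by 1.18 ± 0.37 (adjusted p = 0.516, limma). No gene of 11345 passed the adjusted threshold for any of these interaction terms, and 998, 377 and 861 genes had an unadjusted p under 0.05 for aged against young controls, labelled knockout against aged controls and labelled knockout against young controls. The fits in males alone called 1093 and 875 genes for aged controls and labelled knockout libraries against young controls. Those in females alone called 27 and 11.

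Over both sexes, Itgb1 averaged 36.4 ± 15.6 FPKM in the labelled knockout libraries, 35.9 ± 18.4 FPKM in aged controls and 55.4 ± 12.6 FPKM in young controls (SD, n = 5 each). The aged control minus young control difference was -0.73 ± 0.31 (SE; adjusted p = 0.208, limma), and the labelled knockout minus young control difference was -0.67 ± 0.31 (adjusted p = 0.232). Against aged controls the labelled knockout libraries differed by 0.06, with a 95% interval of -0.60 to 0.72. Itga6 averaged 10.1 ± 5.06 FPKM in the labelled knockout libraries, 12.8 ± 3.50 FPKM in aged controls and 11.8 ± 3.65 FPKM in young controls (SD, n = 5 each), and no difference between groups passed the test (adjusted p between 0.546 and 0.834, limma).

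The ratio of Itgb7 to Itgb1 FPKM puts both beta subunits on one scale, since both can pair with alpha 4. It was 0.139 to 0.575 in the labelled knockout libraries, 0.264 to 1.29 in aged controls and 0.143 to 0.375 in young controls. Within aged controls it was 0.264 and 0.355 in the 2 females, against 0.800, 0.846 and 1.29 in the 3 males. Of the summed FPKM of Itgb1, Itgb2 and Itgb7, Itgb7 took 10.6% to 30.2% in the labelled knockout libraries, 19.1% to 42.6% in aged controls and 10.9% to 20.1% in young controls. The highest shares were in the male aged controls, where Itgb1 was low and Itgb7 high in the same libraries.

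**Figure D4:**
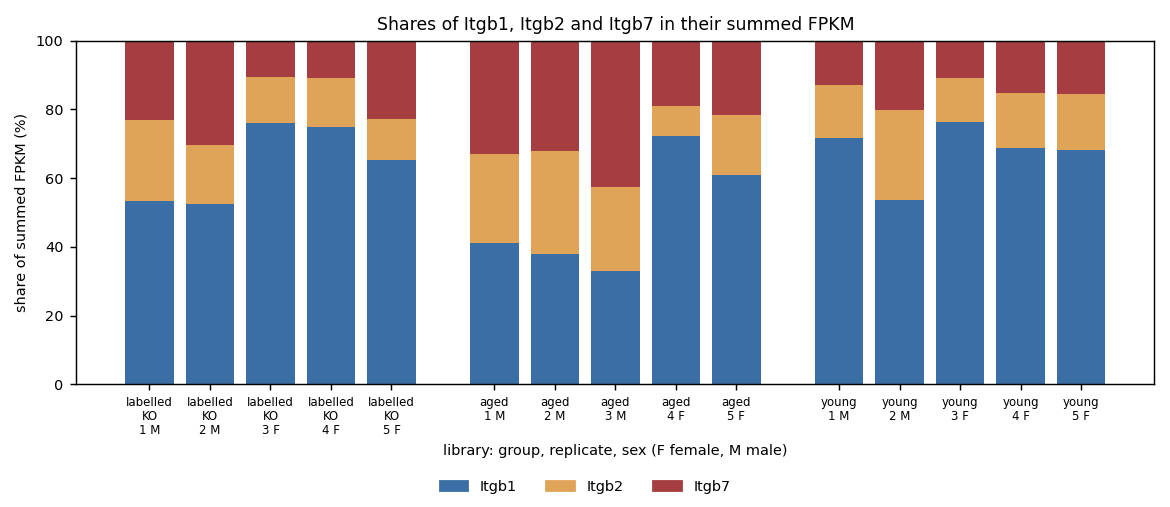
Share in percent (y axis, 0 to 100) of Itgb1, Itgb2 and Itgb7 in their summed FPKM, 1 bar per library, with labelled aged Thbs1 knockout libraries at the left, aged controls in the middle and young controls at the right; F is female and M male. Itgb1 takes 33.1% to 41.1% in the 3 male aged controls, against 60.9% and 72.4% in the 2 female aged controls.

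The leukocyte integrins pair beta 2 (Itgb2, CD18) with alpha L (Itgal, CD11a) as LFA-1, which binds ICAMs, or with alpha M (Itgam, CD11b) as Mac-1, a receptor of myeloid cells. Itgb2 (ENSMUSG00000000290, chr10:77530252-77565708, plus strand) had 11.84, 6.26, 9.53, 10.05 and 5.54 FPKM in the labelled knockout libraries. It had 15.32, 18.98, 14.00, 6.60 and 15.84 FPKM in aged controls. It had 14.15, 17.68, 10.53, 11.46 and 15.07 FPKM in young controls. Aged and young controls covered much the same range, apart from aged control replicate 4, and the labelled knockout libraries lay lower with some overlap. The lowest labelled knockout values, 6.26 and 5.54 FPKM, were in replicates 2 and 5, where rRNA-like reads were highest.

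The labelled knockout minus aged control difference of Itgb2 was -0.63 ± 0.24 (SE; adjusted p = 0.252, limma), and it was -0.86 (adjusted p = 0.035) without aged control replicate 4. Against young controls it was -0.64 ± 0.24 (adjusted p = 0.157, limma). Between aged and young controls it was -0.01, with a 95% interval of -0.52 to 0.49. Over 29 alternative fits, the labelled knockout minus aged control difference of Itgb2 ran from -0.86 to -0.23. Itgal, at chr7:127296260-127335138 (plus strand), averaged 1.02 ± 0.47 FPKM in the labelled knockout libraries, 1.43 ± 0.43 FPKM in aged controls and 1.70 ± 0.38 FPKM in young controls (SD, n = 5 each). Its labelled knockout minus young control difference was -0.44 ± 0.18 (adjusted p = 0.192, limma), and the groups overlapped in every comparison. The lowest labelled knockout values of Itgal, 0.82 and 0.33 FPKM, were again in replicates 2 and 5.

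Itgam, at chr7:128062640-128118491 (plus strand), was at or under 0.76 FPKM in all libraries but labelled knockout replicate 5. It had 0.00, 0.16, 0.32, 0.26 and 2.53 FPKM in the labelled knockout libraries, 0.08, 0.16, 0.02, 0.76 and 0.47 FPKM in aged controls, and 0.40, 0.25, 0.61, 0.35 and 0.41 FPKM in young controls. Replicate 5 of the labelled knockout group stood alone. The calprotectin genes S100a8 and S100a9 of neutrophils and monocytes were at 19.31 and 20.12 FPKM in that library, against at most 8.60 and 9.10 FPKM in the other 14. Neutrophil granule genes did not move together there: Ngp and Lcn2 were at 0.00 FPKM and Ltf at 0.15 FPKM. The granule protease genes Elane and Prtn3 were at 2.33 and 339 FPKM in that library, their highest values in the labelled knockout group. Of 15 neutrophil and monocyte markers 13 were in the table and 5 reached a mean of 1 FPKM, with summed levels of 161 to 385 FPKM in the labelled knockout libraries, 195 to 382 FPKM in aged controls and 92.3 to 144.1 FPKM in young controls. Most of each sum was Prtn3, the proteinase 3 gene, which averaged 199.9 FPKM in the labelled knockout libraries, 295 FPKM in aged controls and 102 FPKM in young controls. No comparison of groups passed the test for Itgam (adjusted p between 0.772 and 0.903, limma over 20696 genes). By sex, Itgam was at 0.26 to 2.53 FPKM in female libraries, against 0 to 0.40 FPKM in male libraries. The female minus male difference was 0.48 (adjusted p = 0.155, limma), and 0.32 (adjusted p = 0.033) without labelled knockout replicate 5.

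The other alpha chains were low. Itga4 (chr2:79255426-79333123, plus strand), the partner of both beta 1 and beta 7 and the VCAM-1 receptor subunit, had 0.73, 0.82, 0.93, 1.01 and 0.48 FPKM in the labelled knockout libraries. It had 0.73, 0.66, 0.50, 1.23 and 0.77 FPKM in aged controls. It had 2.63, 0.85, 1.10, 0.95 and 0.97 FPKM in young controls. A single young control, replicate 1, stood above the rest, and the groups overlapped. The aged control minus young control difference was -0.33 ± 0.18 (adjusted p = 0.417, limma over 20696 genes), and the labelled knockout minus aged control difference was 0.02, with a 95% interval of -0.36 to 0.39. Between 120 and 682 reads lay behind Itga4. It shares 2581 bases with Cerkl on the other strand.

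Itgav (chr2:83724397-83806916, plus strand) encodes alpha V, a receptor subunit for vitronectin that also frees latent TGF-beta. It averaged 1.12 ± 0.80 FPKM in the labelled knockout libraries, 1.05 ± 0.50 FPKM in aged controls and 1.67 ± 0.54 FPKM in young controls (SD, n = 5 each). The differences from young controls were -0.39 in the labelled knockout libraries and -0.39 in aged controls (adjusted p = 0.330 and 0.352, limma), and the groups overlapped.

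The order of levels was set by the same 5 abundant genes in each group. In the labelled knockout libraries Itgb1 was highest, before Itga5, Itga6, Itgb7 and Itgb2, and in this sequence neighbours overlapped in range. In aged controls the order was Itga5, Itgb1, Itgb7, Itgb2 and Itga6, again with overlapping neighbours, though Itgb7 was above Itgb2 in 5 of 5 libraries. In young controls Itgb1 lay above Itga5 and Itga5 above Itgb2 without overlap, followed by Itgb7 and Itga6, which overlapped with Itgb2 and with each other. In every group a gap without overlap separated these 5 from Itgal, Itgav, Itga4, Itga9 and Itgam, none of which exceeded 2.63 FPKM in any library. The partner alpha 4 chain was thus listed at 0.48 to 2.63 FPKM beside 7.44 to 24.45 FPKM for beta 7. Reads behind these values came to 120 to 682 per library for Itga4 and 403 to 1426 for Itgb7. These ranges met only through young control replicate 1, where Itga4 was at 2.63 FPKM. The size of the gap in FPKM depends in part on the exon lengths, 13978 and 2770 bases.

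Other integrin subunits were read beside the 10. Of 16 other subunits 15 were in the table and 5 were tested, and of these 3 rose and 1 fell in aged controls against young controls. Over all genes tested, 3.18% were called higher and 1.23% lower in that comparison. Itgb3, the beta 3 subunit of the platelet fibrinogen receptor and the vitronectin receptor, averaged 36.8 ± 17.2 FPKM in the labelled knockout libraries, 71.1 ± 4.70 FPKM in aged controls and 18.9 ± 1.66 FPKM in young controls (SD, n = 5 each). It differed by 1.86 between aged and young controls (adjusted p = 2.6e-05, limma) and by -1.04 between labelled knockout libraries and aged controls (adjusted p = 0.014), the second of which was -1.01 (adjusted p = 0.0502) without aged control replicate 1 and was not called with only the compared groups fitted (adjusted p = 0.087).

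Its platelet partner Itga2b, CD41, averaged 39.1 ± 13.3, 138 ± 46.5 and 64.4 ± 4.26 FPKM in the same groups, with differences of 1.01 (adjusted p = 0.038, limma) with age and -1.80 (adjusted p = 0.0010) with the label. The call of Itga2b with age was lost in 9 of 15 fits that each left out 1 library and with the replicate number as a block (adjusted p = 0.052). The laminin-binding Itga3 rose with age by 1.03 (adjusted p = 0.0014, limma), at 3.50 ± 0.71 FPKM in aged controls, against 1.19 ± 0.17 FPKM in young controls. The vitronectin receptor subunit Itgb5 fell by 1.25 with age on the log2 scale (adjusted p = 0.0034), at 0.36 ± 0.09 FPKM in aged controls, against 2.26 ± 0.46 FPKM in young controls. Megakaryocyte markers, a list that holds Itga2b and Itgb3, had 8 of 8 genes at a mean of at least 1 FPKM. Their summed level was 240 to 376 FPKM in the labelled knockout libraries, 364 to 2078 FPKM in aged controls and 414 to 526 FPKM in young controls. Pf4 alone had a highest value of 1579 FPKM in aged controls, where its median was 305 FPKM. With age 3 of the 8 were called higher, 1 lower and 4 not (limma), where 3.18% of all genes tested were called higher and 1.23% lower. Mean Ppbp was 6.15 FPKM in aged controls, against 18.0 FPKM in young controls. The part of these markers in the differences of Itga2b and Itgb3 was not tested.

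Inside the cell, none of 15 tested genes of integrin activation, among them Tln1, Fermt3 and the Rap1 genes, was called by limma or by voom in any comparison of groups. Unadjusted p-values were under 0.05 for 3 of them in aged against young controls, 2 in labelled knockout libraries against aged controls and 4 in labelled knockout libraries against young controls. Fermt3, which encodes kindlin-3 of blood cells, averaged 257 ± 57.4 FPKM in the labelled knockout libraries, 341 ± 46.4 FPKM in aged controls and 313 ± 27.7 FPKM in young controls, and talin 1 (Tln1) 85.7 ± 30.4, 101 ± 18.6 and 103 ± 13.5 FPKM (SD, n = 5 each). Of 20 tested focal adhesion and signalling genes 2 rose with age, where 3.18% of all genes tested were called higher. None was called by limma or voom in labelled knockout libraries against aged or young controls, where 3 and 8 had an unadjusted p under 0.05. The 2 called were Fgr, a Src family kinase (0.88, adjusted p = 0.018, limma), and Ptk2b, the focal adhesion kinase relative Pyk2 (0.49, adjusted p = 0.032). These 2 calls were lost in 5 and 8 of 15 fits that left out 1 library, and that of Ptk2b with the replicate block (adjusted p = 0.054).

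Of 11 tested integrin ligands, a list that holds Thbs1, 4 rose with age, where 3.18% of all genes tested were called higher. They were the laminin chain Lama5 (1.10, adjusted p = 0.0015, limma), the junctional molecules Jam2 (1.43, adjusted p = 0.0049) and F11r (0.56, adjusted p = 0.038), and the LFA-1 ligand Icam2 (0.46, adjusted p = 0.048). The calls of F11r and Icam2 were lost in 7 and 10 of 15 fits that left out 1 library and with the replicate block (adjusted p = 0.057 and 0.079), and that of Icam2 by voom (adjusted p = 0.058). Lama5 averaged 1.22 ± 0.60 FPKM in the labelled knockout libraries, 2.41 ± 0.56 FPKM in aged controls and 0.59 ± 0.19 FPKM in young controls (SD, n = 5 each). Of the beta 7 ligands in the list, Vcam1 did not exceed 0.29 FPKM, Madcam1 0.23 FPKM and the fibronectin gene Fn1 0.85 FPKM in any library. The median difference with age was 1.01 for the 5 other integrin subunits, -0.05 for the activation genes, -0.14 for the focal adhesion genes and 0.17 for the ligands, against -0.02 over all genes tested. In labelled knockout libraries against aged controls no ligand was called by limma or voom, and 6 of the 11 had an unadjusted p under 0.05. Thbs1, the gene named in the label, was among the 6, and it was higher, by 1.73 (unadjusted p = 0.026, adjusted p = 0.302, limma). Also among them were F11r, Icam2 and Lama5, which were lower.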

How the data were processed

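HSC RNA had been purified with TRIzol-LS and made into SMART-Seq v4 libraries from 2 ng of RNA, per the labels' protocols. Per the submitters' processing notes, FastQC 0.11.5, STAR and edgeR were used with build GRCm38 (mm10). The authors deposited FPKM values with 2 decimals, and the sources used here give no settings for counting, strand included. Gene positions and lengths came from GENCODE on GRCm38, and all 20696 identifiers matched. Reads were recovered from the rounding: in held-out genes, 97.7% to 98.6% of values were whole within 0.1 reads. These reads gave the depth and an alternative test.

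FPKM were analysed as log2(FPKM + 1) with limma 3.58.1 in R 4.3.3 (trended prior, 15 libraries in 1 fit, two-sided). Genes with a mean of at least 1 FPKM were tested, 11345 in all. Itga4, Itga9 and Itgam fell under that limit and were read from a fit without it. A gene was called at a Benjamini-Hochberg adjusted p under 0.05, over all genes of the fit. The code was tested on simulated data. Ranges that do not overlap mean that all 5 values of one group exceeded all 5 of the other.

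The members, gene lists, marker lists and tests were chosen with earlier results of these data known. Named genes were the 10 members, called genes among the 4 with the smallest p in each of the lists of other integrin subunits, activation, focal adhesion and ligands, and the 3 genes most correlated with each called member. Other genes were named after their values were seen. Columns were grouped by title, and sex was read from the library names. Counting error alone cannot be separated from other spread here, and 1 read is worth more FPKM in short genes.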

Additional observations from a re-analysis of the deposited data

Results flagged for a closer look

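In 69 groups of 5 values, 4 had a single library so far from the nearest other that the gap passed Dixon's 95% limit, where chance gives about 1 in 20. Itga4 was at 2.63 FPKM in young control replicate 1, against 0.85 to 1.10 FPKM in the other 4. Itgam was at 2.53 FPKM in labelled knockout replicate 5, against at most 0.32 FPKM in the other 4. Itgb5 had a highest value of 3.41 FPKM in the labelled knockout group, whose median was 0.62 FPKM. The share of rRNA-like reads was 2.352% in labelled knockout replicate 2, where the median of the group was 0.406%.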

How the results depend on the processing

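The labelled knockout against aged control call of Itgb7 held in every alternative run except 2, females alone and the grouping by library name in the sample descriptions, and the cause of the dependence on grouping was not tested. The grouping by descriptions puts young control replicates 3 to 5 among aged controls and aged control replicates 1 to 3 among young controls. It called 0 of 11345 genes between aged and young controls, against 501 by title. For the labelled knockout it called 0 against aged controls and 15 against young controls, where the titles gave 176 and 185. Between aged and young controls the differences turned with that grouping to -0.41 for Itga5, -0.28 for Itga6, 0.41 for Itga9, 0.12 for Itgal, 0.13 for Itgam, 0.37 for Itgb1, -0.59 for Itgb7, -0.85 for Itgb3, -0.43 for Itga3, 0.56 for Itgb5, -0.93 for Itga2b, -0.83 for Fgr, -0.33 for Ptk2b, -0.68 for Lama5, -0.48 for Jam2, -0.47 for F11r and -0.39 for Icam2. Against aged controls they turned to -0.033 for Itga4, 0.76 for Itga6, -0.29 for Itga9, 0.0036 for Itgb7 and 1.06 for Itgb3, and against young controls to 0.48 for Itga6, 0.12 for Itga9, 0.069 for Itgav and 0.64 for Itgb1. The number of members called between aged and young controls, 1 of 7, was 0 with that grouping and in females alone, and 2 without a filter on low values, in males alone, with only the groups compared and without labelled knockout replicates 2 and 5. Leaving out 1 library at a time gave 0 to 1. Against aged controls, 1 became 0 with the grouping by descriptions and in females alone, and 1 to 2 with 1 library left out. Against young controls, 0 became 1 in males alone. That fit called 875 of 11345 genes, against 185 with both sexes and 11 in females alone. Between the sexes, 2 became 0 with the replicate number as a block, and 1 to 3 with 1 library left out. Whether the replicate numbers pair the samples is not settled here: 6 of 15 same-number pairs deviated together at a correlation over 0.1, in a range of -0.455 to 0.527. Replicate 2 did so in every comparison (0.489 for aged and young controls, 0.372 and 0.470 for labelled knockout with aged and with young controls). Pairs of different numbers were not read beside them. Under the block, 499, 152 and 158 genes were called in the 3 comparisons of groups, against 501, 176 and 185 without it, and between the sexes 1, against 1468. The female minus male differences were 1.46 for Itgb1 (adjusted p = 0.599, limma) and 1.08 for Itga6 (adjusted p = 0.616). The block changed no member's call between groups, but it ended the calls with age of Itga2b (adjusted p = 0.052, limma), Ptk2b (0.054), F11r (0.057) and Icam2 (0.079). Icam2 was also not called without a filter (0.059), at a mean of at least 5 FPKM (0.056) or by voom (0.058), nor Itga2b and F11r without a filter (0.083 and 0.059) and Itga2b with quantile normalization (0.051). The number of genes called between aged and young controls, 501, was 1011 with only the groups compared, 265 with a mean of at least 5 FPKM, 1093 in males alone and 27 in females alone. With 1 library left out it ran from 311 (aged control replicate 3) to 943 (aged control replicate 5). The 176 against aged controls ran from 95 (aged control replicate 1) to 229 (aged control replicate 5), the 185 against young controls from 98 (young control replicates 1 and 5) to 676 (labelled knockout replicate 4), and the 1468 between the sexes from 529 (aged control replicate 5) to 2872 (young control replicate 1), so the background shares move with single libraries. Small differences changed sign elsewhere. Against young controls in aged controls, Itgam was 0.15 in females alone, Itgb2 0.013 in males alone and -0.13 to 0.22 with 1 library left out, and Itga6 -0.042 to 0.22. Against aged controls, Itga4 was -0.028 with quantile normalization, -0.15 in females alone and -0.040 to 0.10 with 1 library left out. Itgam was -0.011 in males alone, -0.10 without replicates 2 and 5 and -0.11 to 0.35 with 1 left out. Itgav was -0.077 and -0.020 with pseudocounts of 0.1 and 0.5, -0.055 with sex as a covariate, -0.091 by voom, -0.44 in males alone and -0.18 to 0.16 with 1 left out, and Itgb1 was -0.10 with sex as a covariate, -0.34 in females alone and -0.13 to 0.26 with 1 left out. Labelled knockout against young controls, Itga6 was 0.17 in females alone, Itga5 0.16 without replicates 2 and 5, and Itgam -0.29 with a pseudocount of 0.1, -1.04 by voom, -0.30 in males alone, -0.24 without replicates 2 and 5 and -0.25 to 0.21 with 1 left out. Female minus male, Itga4 was 0.0086 with a pseudocount of 0.1, 0.045 with quantile normalization, 0.31 under the block, 0.0087 without replicates 2 and 5 and -0.11 to 0.14 with 1 left out, and Itga9 was -0.015 to 0.14. Depth limits the low genes most: Itgam had 0 to 311 reads per library.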
